A study of Mus musculus with 24 samples.

Results

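The LIF and STAT3 pathway was followed in mouse embryonic stem cells (mESCs) through 8 genes, chosen by name from the 23762 gene symbols of the count table: the receptor chains Lifr and Il6st, the kinase Jak1, the transcription factor Stat3, and 4 genes that STAT3 is known to drive in these cells, Socs3, Pim1, Pim3 and Gbx2. All 8 were present and all passed the filter on low counts, which kept 16067 symbols. The rule goes by name and uses no measured value, although it was set with earlier results of these data known. ES-E14TG2a mESCs, an established mouse line, were profiled as bulk RNA in 24 libraries, 4 for each of 6 groups. Naïve cells were kept in 2iL, which combines LIF with 3 µM of the GSK3 inhibitor CHIR99021 and 1 µM of the MEK inhibitor PD0325901 (group 2iL). For the transition to epiblast-like cells (EpiLC), they were held for 48 hr in 12 ng/ml FGF2 and 20 ng/ml activin A on plates coated with 15 µg/ml fibronectin, a medium for which the labels name neither LIF nor the inhibitors. In each medium, other cells received 0.5 mM succinylacetone (SA), an inhibitor of the heme synthesis enzyme ALAD, for 48 hr (2iL+SA, EpiLC+SA), or SA with 10 µM hemin (2iL+SA+H, EpiLC+SA+H). No group received hemin without SA, so each hemin comparison is one of SA-treated cells.

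LIF binds a receptor made of LIFR and gp130, the product of Il6st, and the JAK kinases bound to that receptor, JAK1 above all in mESCs, phosphorylate STAT3. Phosphorylated STAT3 enters the nucleus and activates genes that help to hold mESCs in the naïve state, among them Tfcp2l1, Klf4 and Gbx2. It also activates Socs3, whose product binds gp130 and JAK and so limits the signal. Naïve mouse cells are grown with LIF, and the pathway is known to be less needed by primed cells. The libraries measure transcripts, not the phosphorylation through which the signal itself runs.

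STAT dimers bind the palindrome TTCNNNGAA, in which N is any base, so the sequences before the RefSeq start of 3 members are shown. Socs3, the gene with the largest changes below, carried the palindrome. Stat3 and Pim1, which changed with SA and with hemin in the transition, are printed for comparison. Each sequence is the longest stretch of the 250 bases before the RefSeq start site on GRCm38.p6 that no GENCODE exon covers. It is written 5′ to 3′ on the strand of the gene, with the palindrome in capitals.
Socs3 chr11:117969452-117969616 (- strand): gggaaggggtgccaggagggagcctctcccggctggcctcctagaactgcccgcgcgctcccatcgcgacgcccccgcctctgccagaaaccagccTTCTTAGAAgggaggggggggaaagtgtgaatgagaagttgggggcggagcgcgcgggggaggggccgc
Stat3 chr11:100939541-100939790 (- strand): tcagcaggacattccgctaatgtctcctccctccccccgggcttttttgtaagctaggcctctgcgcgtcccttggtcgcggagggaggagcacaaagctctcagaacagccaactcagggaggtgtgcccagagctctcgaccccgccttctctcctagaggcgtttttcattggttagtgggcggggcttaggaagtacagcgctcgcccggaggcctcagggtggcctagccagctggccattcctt
Pim1 chr17:29490535-29490752 (+ strand): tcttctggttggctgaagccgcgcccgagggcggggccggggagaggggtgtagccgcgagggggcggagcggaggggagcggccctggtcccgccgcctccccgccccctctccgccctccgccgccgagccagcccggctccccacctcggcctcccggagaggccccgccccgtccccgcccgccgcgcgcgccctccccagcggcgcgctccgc
In Socs3 the palindrome read TTCTTAGAA and began 154 bases before the RefSeq start site. GENCODE places the start of Socs3 681 bases further upstream, so that the printed stretch lies within the GENCODE gene, in the intron of 1 of its 3 transcripts. Windows of 300 bases around the start were found for all 8 genes, 10 windows in all, and 1 of them, that of Socs3, held TTCNNNGAA, against 2726 of 32851 windows of all genes (8.30%). The narrower TTCCNGGAA, which is contained in the first motif, was in 377 windows (1.15%) and in 0 of the members' windows. Both motifs read the same on either strand. A match describes letters and does not show that STAT3 binds there.

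On GRCm38 (GENCODE), Lifr lies on chromosome 15 at 7090614 to 7197489, Il6st on chromosome 13 at 112464070 to 112510086, Jak1 on chromosome 4 at 101152367 to 101265282 and Stat3 on chromosome 11 at 100885098 to 100939540. Socs3 lies on chromosome 11 at 117966079 to 117970047, Pim1 on chromosome 17 at 29490753 to 29496112, Pim3 on chromosome 15 at 88862186 to 88865726 and Gbx2 on chromosome 1 at 89927956 to 89931179. Stat3 overlaps the oppositely oriented Stat5a by 72 bases, Pim1 an antisense gene by 1173 and Gbx2 the transcript D130058E05Rik by 946. Jak1 overlaps the oppositely oriented Raver2 by 4 bases and Gm24468 by 104, and the pseudogene Gm12785, on its own strand, by 172. Since the strand setting of the authors' counting is not stated, reads from these stretches cannot be assigned to one partner.

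Library totals ran from 1857964 to 9069538 counts. The 3 shallowest, replicate 3 of 2iL+SA (1857964 counts), replicate 1 of EpiLC+SA+H (2131987) and replicate 3 of EpiLC (2883740), are called shallow below, and each had the lowest Pim3 level of its group, so calls that change without them are given both ways. All 8 primed markers were higher in EpiLC than in 2iL and 6 of 8 naïve markers lower, as the labels imply. Summed markers of primitive endoderm (5.32 to 35.7 CPM) and fibroblasts (1.94 to 19.8 CPM) were low in all groups, with Sox7 at 0 in 4 groups and Dcn and Postn at 0 in the 3 naïve groups. The 7 trophectoderm markers found in the table, of 8 listed, summed to 109 to 265 CPM in the naïve libraries and to 34.1 to 86.2 CPM in those of the transition. The list did not move as one in EpiLC against 2iL, where 6 were tested. Tfap2c, which naïve mESCs also express, was lower (-4.45), whereas Krt18 was higher (3.68). Hand1, named after its values were seen, was also higher (3.41), but at means of only 0.072 CPM in 2iL and 0.876 CPM in EpiLC. The 4 general pluripotency markers summed to 731 to 1880 CPM across all groups. Pou5f1 added little to this sum, at a mean of 14.1 CPM in 2iL, where Sox2 was at 885 CPM. The 4 did not move together either: in EpiLC against 2iL, Utf1 was higher (3.56), Sall4 lower (-0.51), and Sox2 and Pou5f1 were not called. In bulk RNA, fewer cells expressing a gene and less RNA per cell cannot be told apart. The labels do not say whether replicates were separate cultures, and what the p values measure is variation among libraries that may be technical. A level below is in CPM (read counts scaled by library size and TMM factor), libraries are listed as replicates 1 to 4, and a difference is a log2 fold change ± SE from edgeR's quasi-likelihood test on all libraries, with p adjusted by Benjamini-Hochberg over 16067 genes and called under 0.05.

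**Figure D1:**
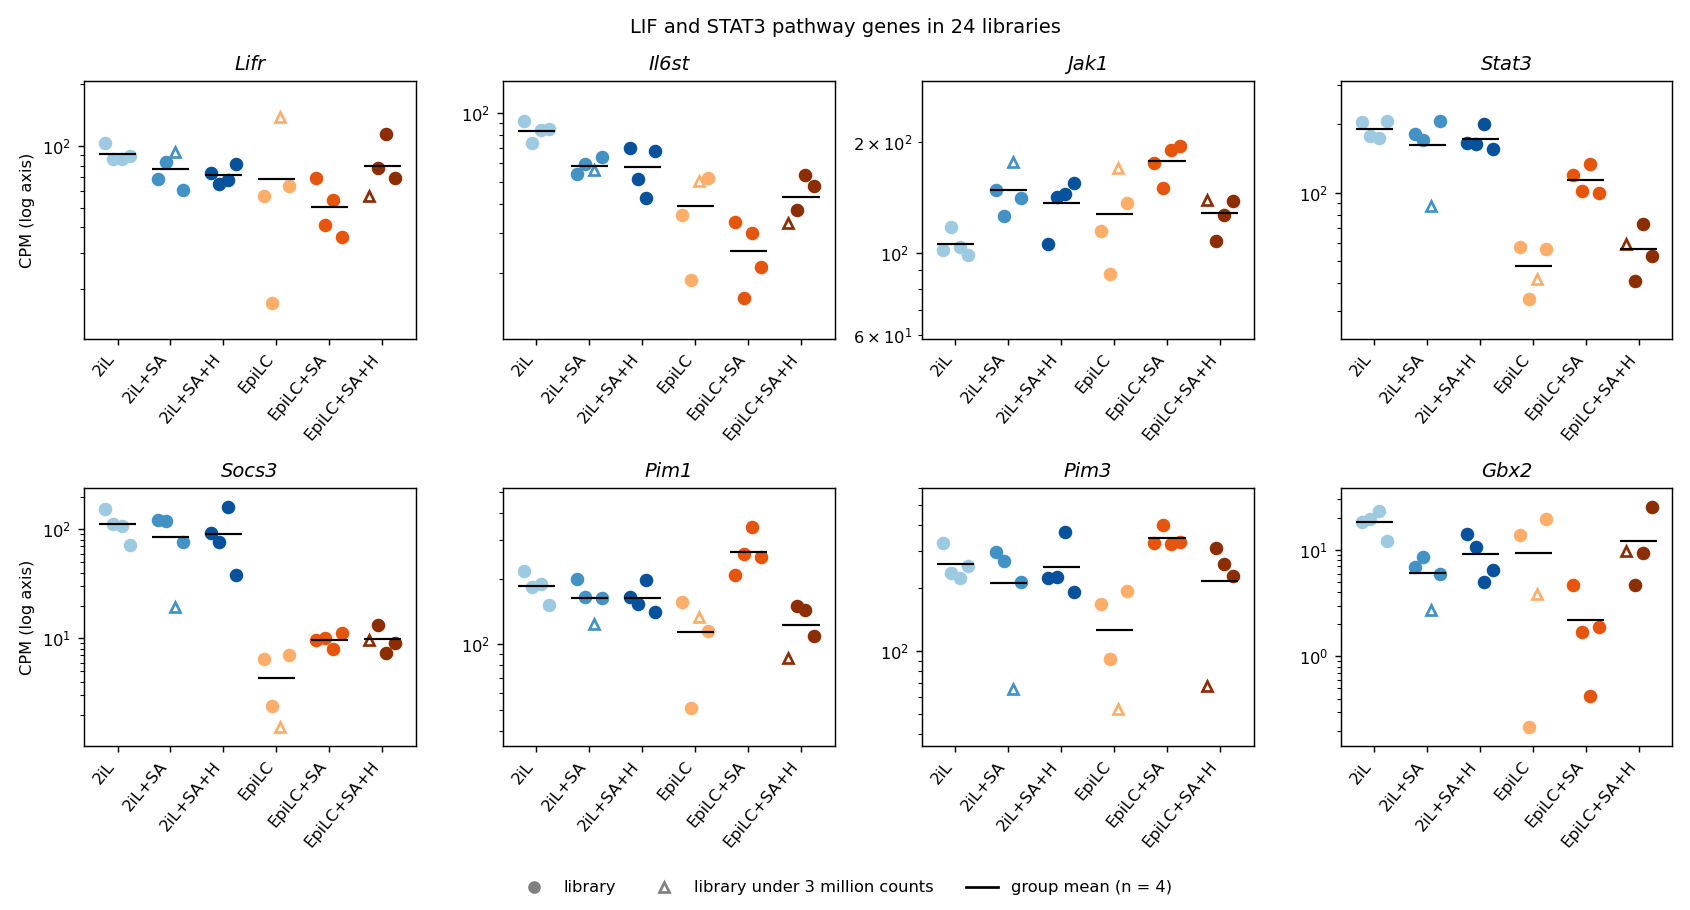
Level in CPM (log axis) of each of the 8 genes in the 24 libraries, with points for libraries, open triangles for the 3 shallow libraries and lines for group means (n = 4). Socs3 lay at 19.3 CPM or above in all naïve libraries and at 13.2 CPM or below in all libraries of the transition, and Stat3 and Pim1 were higher in EpiLC+SA than in EpiLC without overlap.

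When the cells left 2iL, the messages of STAT3 itself and of its inhibitor Socs3 fell furthest (4.02-fold and 23.4-fold), the gp130 chain Il6st fell 2.13-fold, and the receptor chain Lifr and the kinase Jak1 passed no threshold. In EpiLC against 2iL, 4 of the 8 genes were lower (Il6st, Stat3, Socs3, Pim1) and 0 higher, where 28.3% of all genes were called, 13.4% as lower. For 4 members (Il6st, Stat3, Socs3, Pim3) the groups did not overlap, where 29.9% of all genes did not. The median of the 8 was -0.97, against 0.0044 over all genes.

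Lifr, the chain that binds LIF first, stood at 103, 85.7, 86.4 and 88.6 CPM in 2iL and at 57.1, 17.3, 137 and 63.6 CPM in EpiLC. The EpiLC values spanned those of 2iL on both sides, and the difference of -0.42 ± 0.34 was not called (adjusted p = 0.389). Leaving out EpiLC replicate 3, the shallow library with the highest value, gave -0.97 (adjusted p = 0.0184). With each library left out in turn, the difference ran from -0.97 to -0.09 (adjusted p from 0.0184 to 0.839). The size of the difference for Lifr thus depends on single libraries.

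Il6st, the signalling chain shared by the IL-6 family of cytokines, was at 91.4, 73.3, 84.1 and 84.6 CPM in 2iL and at 36.0, 18.6, 50.3 and 51.7 CPM in EpiLC. The groups did not overlap and the difference was -1.09 ± 0.26 (adjusted p = 0.00201). With SA in both media Il6st was also lower in the transition (-1.23 ± 0.26, adjusted p = 0.000576), with 54.1, 59.9, 56.1 and 63.8 CPM in 2iL+SA and 33.3, 15.5, 29.8 and 21.2 CPM in EpiLC+SA. With SA and hemin in both media it was at 70.4, 51.5, 42.4 and 68.1 CPM in 2iL+SA+H and at 32.9, 37.5, 53.4 and 47.9 CPM in EpiLC+SA+H, which overlapped (-0.43 ± 0.25, adjusted p = 0.27).

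Jak1 differed least between the media of the 8 genes: its log2 fold change was 0.27 ± 0.18 without treatment, 0.27 ± 0.18 with SA and -0.09 ± 0.18 with SA and hemin, none of them called. Its 95% intervals together ran from -0.46 to 0.64.

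Stat3 was at 205, 177, 174 and 208 CPM in 2iL and at 57.2, 33.9, 41.4 and 56.6 CPM in EpiLC, a fold change of 4.02 downwards (-2.01 ± 0.23, adjusted p = 2.02e-07). With SA in both media the 2iL+SA libraries held 182, 172, 87.5 and 207 CPM and the EpiLC+SA libraries 119, 101, 134 and 99.5 CPM. These groups overlapped through 2iL+SA replicate 3, a shallow library, and the difference was -0.52 ± 0.22 (adjusted p = 0.0605). It was called with DESeq2 (adjusted p = 0.0423). Without that library it was -0.73 (adjusted p = 0.00387), and without EpiLC+SA replicate 3 it was -0.62 (adjusted p = 0.0428). With SA and hemin Stat3 fell 3.05-fold (-1.61 ± 0.22, adjusted p = 6.65e-06), from 166, 165, 200 and 156 CPM in 2iL+SA+H to 59.5, 40.6, 72.6 and 52.6 CPM in EpiLC+SA+H, without overlap.

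Socs3, the feedback inhibitor, changed most. Its naïve levels were 155, 112, 107 and 71.8 CPM in 2iL, 122, 120, 19.3 and 77.1 CPM in 2iL+SA, and 93.1, 76.0, 159 and 38.0 CPM in 2iL+SA+H. After the switch they were 6.45, 2.38, 1.55 and 7.12 CPM in EpiLC, which rest on 4 to 58 counts per library. In EpiLC+SA the libraries held 9.71, 9.99, 8.02 and 11.2 CPM, and in EpiLC+SA+H 9.68, 13.2, 7.29 and 9.15 CPM. The log2 fold change was -4.55 ± 0.50 without treatment (23.4-fold lower, adjusted p = 2.63e-07), -3.14 ± 0.46 with SA (8.79-fold lower, adjusted p = 1.19e-05) and -3.22 ± 0.47 with SA and hemin (9.31-fold lower, adjusted p = 1.77e-05). Each pair of groups was without overlap, and the lowest naïve value, 19.3 CPM, was again that of 2iL+SA replicate 3. Whether the fall differed with SA is the test of SA between media given below, and it was not called.

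Pim1 and Pim3 encode serine/threonine kinases that favour survival and self-renewal. Pim1 stood at 217, 184, 190 and 152 CPM in 2iL and at 157, 51.2, 134 and 114 CPM in EpiLC (-0.70 ± 0.25, adjusted p = 0.0334). The groups overlapped between EpiLC replicate 1 and 2iL replicate 4, and the call was lost without EpiLC replicate 2 (-0.47, adjusted p = 0.106) and without 2iL replicate 1, 2 or 3 or EpiLC replicate 4 (adjusted p from 0.0591 to 0.0919). With SA in both media Pim1 was instead higher after the switch (0.70 ± 0.25, adjusted p = 0.0256), at 200, 165, 123 and 164 CPM in 2iL+SA against 208, 259, 346 and 251 CPM in EpiLC+SA. This rise was 0.57 without the 3 shallow libraries (adjusted p = 0.0693), and it also missed the threshold without 2iL+SA replicate 2, 3 or 4 or EpiLC+SA replicate 3 (adjusted p from 0.0517 to 0.111). With SA and hemin the difference was -0.42 ± 0.25 (adjusted p = 0.259).

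Pim3 was at 330, 236, 224 and 254 CPM in 2iL and at 168, 91.5, 52.6 and 194 CPM in EpiLC. The groups did not overlap, yet the difference of -1.04 ± 0.41 was not called (adjusted p = 0.0604). It was called with DESeq2 (adjusted p = 0.0371), at a minimum count of 10 (0.0470) and with only the compared groups fitted (0.0377), so the call depends on the settings. It was also called with a smaller size without the 3 shallow libraries (-0.78, adjusted p = 0.0122) and with a larger one without EpiLC replicate 4 (-1.32, adjusted p = 0.0321). With SA in both media it was 0.70 ± 0.41 (adjusted p = 0.181) and with SA and hemin -0.22 ± 0.40 (adjusted p = 0.778).

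Gbx2, a homeobox factor, was the member with the lowest counts. In 2iL it stood at 18.4, 19.4, 23.4 and 12.3 CPM and in EpiLC at 13.7, 0.216, 3.87 and 19.8 CPM, where replicate 2 rests on 1 count and replicate 4 on 161. The EpiLC libraries thus spanned most of the range of the whole series, and the difference of -0.90 ± 0.62 was not called (adjusted p = 0.3). With SA in both media it was -1.50 ± 0.72 (adjusted p = 0.105, and 0.0415 at -2.23 without EpiLC+SA replicate 1), and with SA and hemin 0.46 ± 0.63 (adjusted p = 0.676).

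With SA in both media, 1 member was higher (Pim1) and 2 lower (Il6st, Socs3), where 37.8% of all genes were called, and 4 members (Il6st, Socs3, Pim1, Pim3) did not overlap, where 34.9% of all genes did not. With SA and hemin 0 were higher and 2 lower (Stat3, Socs3), where 20.6% of all genes were called, 10.5% as lower, and these 2 were also the members without overlap, where 23.1% of all genes did not overlap. Of the 8 members, Socs3 was the one called in all 3 pairs of media. These pairs share no library.

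**Figure D2:**
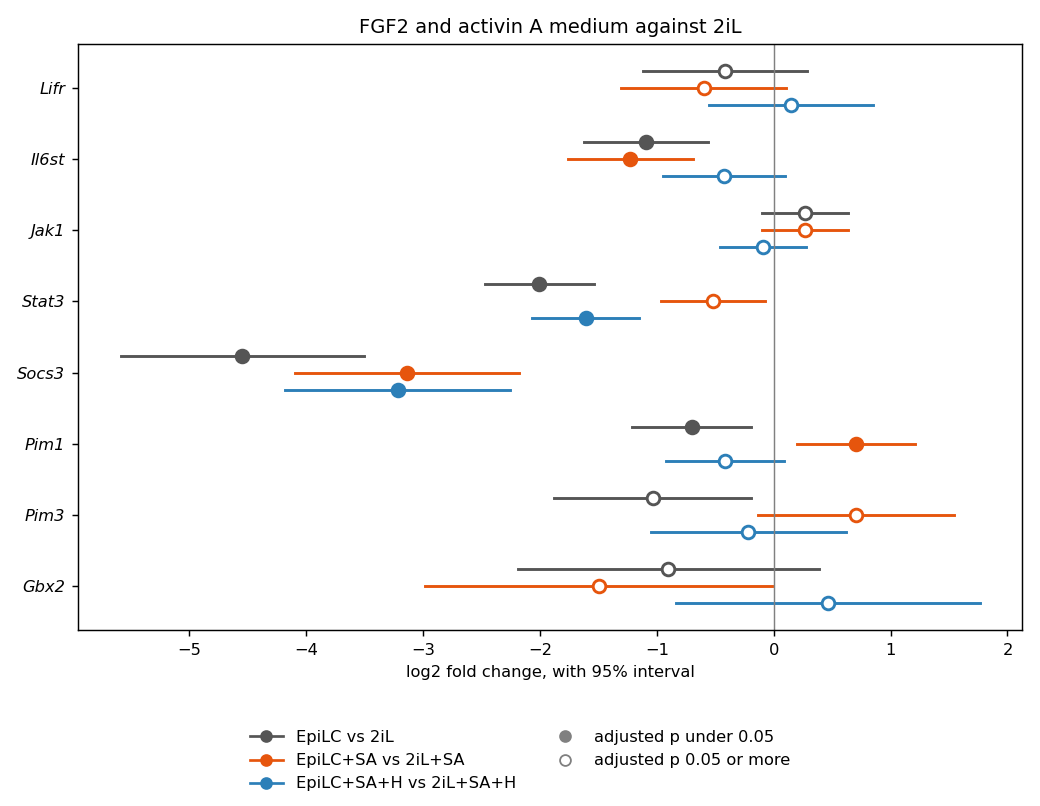
Log2 fold change with 95% interval of the 8 genes between the transition medium and 2iL, without treatment, with SA, and with SA and hemin, with filled points at an adjusted p under 0.05. Socs3 was below 0 in all 3 pairs (-4.55, -3.14 and -3.22), whereas Pim1 was at -0.70 without treatment and at 0.70 with SA.

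With SA in the transition, the messages of Stat3, Pim1 and Pim3 were more than 2-fold higher and that of Gbx2 was lower. In EpiLC+SA against EpiLC 4 members were higher (Jak1, Stat3, Pim1, Pim3) and 1 lower (Gbx2), where 27.9% of all genes were called. The members' median was 0.76, against -0.00021 over all genes.

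Stat3 was at 57.2, 33.9, 41.4 and 56.6 CPM in EpiLC and at 119, 101, 134 and 99.5 CPM in EpiLC+SA, 2.39-fold higher (1.26 ± 0.22, adjusted p = 0.000161). Pim1 rose 2.33-fold (1.22 ± 0.25, adjusted p = 0.000676), from 157 CPM or below in EpiLC to 208 CPM or above in EpiLC+SA. Pim3 rose 2.72-fold (1.44 ± 0.41, adjusted p = 0.0114), from 168, 91.5, 52.6 and 194 CPM to 329, 400, 325 and 331 CPM. For each of these 3 genes every EpiLC+SA library lay above every EpiLC library, and the calls held whichever library was left out, with an adjusted p of at most 0.0474.

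Socs3 was also higher in every EpiLC+SA library than in any EpiLC library, but at 1.03 ± 0.49 it was not called (adjusted p = 0.118). With it, 4 of the 8 members did not overlap, where 25.7% of all genes did not. Its level in every EpiLC+SA library was below that of the lowest naïve library.

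Jak1 was higher by 0.48 ± 0.18 (adjusted p = 0.044), at 115, 87.7, 170 and 137 CPM in EpiLC and 175, 150, 190 and 195 CPM in EpiLC+SA, which overlapped. The call lies at the threshold: it was lost when replicate 1, 2 or 4 of EpiLC or replicate 1, 3 or 4 of EpiLC+SA was left out (adjusted p from 0.0541 to 0.197), and with DESeq2 (0.0537). Gbx2 was lower by 2.12 on the log2 scale (-2.12 ± 0.71, adjusted p = 0.0287), at 4.69, 1.70, 0.422 and 1.89 CPM in EpiLC+SA. Those libraries held 2 to 29 counts and overlapped with EpiLC, and the call was lost without EpiLC replicate 1 or 4 or EpiLC+SA replicate 2, 3 or 4 (adjusted p from 0.0665 to 0.147).

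The receptor chains were not called. Il6st was at -0.64 ± 0.26 (adjusted p = 0.0649), and it passed the threshold with DESeq2 (0.0452) and without EpiLC replicate 2 (-0.89, adjusted p = 0.00768) or EpiLC+SA replicate 1 (-0.84, adjusted p = 0.0307). Lifr was at -0.43 ± 0.34 (adjusted p = 0.364), with 69.4, 41.2, 54.7 and 36.2 CPM in EpiLC+SA. Without EpiLC replicate 2, the library with the lowest Lifr, Il6st and Pim1 levels of EpiLC, Lifr was at -0.78 (adjusted p = 0.0387), and without EpiLC replicate 3 at 0.09 (adjusted p = 0.853), so the data give no direction for Lifr.

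In 2iL the same dose of SA moved 0 of the 8 members past the threshold with edgeR, where 0.0498% of all genes were called, and 0 with DESeq2, which called 1.98% of all genes. At an unadjusted p under 0.05 were 2 members, where 12.7% of all genes were, Jak1 at 0.49 ± 0.18 (adjusted p = 0.238) and Gbx2 at -1.52 ± 0.64 (adjusted p = 0.32). Jak1 was at 102, 118, 104 and 98.5 CPM in 2iL and at 149, 126, 176 and 141 CPM in 2iL+SA. Gbx2 was at 6.90, 8.56, 2.75 and 5.96 CPM in 2iL+SA, and neither gene overlapped between the groups. Il6st did not overlap either (-0.51 ± 0.25, adjusted p = 0.405), so that 3 of 8 members were separate, where 12.2% of all genes were. Stat3 was at -0.23 ± 0.22, Socs3 at -0.38 ± 0.41, Pim1 at -0.18 ± 0.24, Pim3 at -0.29 ± 0.40 and Lifr at -0.25 ± 0.34, with groups that overlapped.

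Whether SA acted differently in the 2 media was tested as the difference between its log2 fold changes. It was called for 3 of 8 members, all higher, where 14.3% of all genes were called, 5.27% as higher: Stat3 (1.49 ± 0.31, adjusted p = 0.00234), Pim1 (1.41 ± 0.35, adjusted p = 0.00857) and Pim3 (1.74 ± 0.58, adjusted p = 0.0453). For Stat3 and Pim1 the call held whichever of the 16 libraries was left out (adjusted p of at most 0.0228). For Pim3 it was lost without any 1 of 12 libraries (all of 2iL and EpiLC+SA, 2iL+SA replicates 3 and 4 and EpiLC replicates 2 and 3), with differences of 1.44 to 1.80 and an adjusted p of at most 0.0935. For Socs3 the difference was 1.41 ± 0.64 (adjusted p = 0.143). For Jak1 it was -0.00084 ± 0.25, with SA effects of 0.48 in the transition and 0.49 in 2iL. The call of Jak1 in the transition alone thus does not show a difference between the media. Gbx2 was at -0.60 ± 0.94 (adjusted p = 0.712), Il6st at -0.13 ± 0.36 (0.839) and Lifr at -0.18 ± 0.48 (0.834), none of them called.

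**Figure D3:**
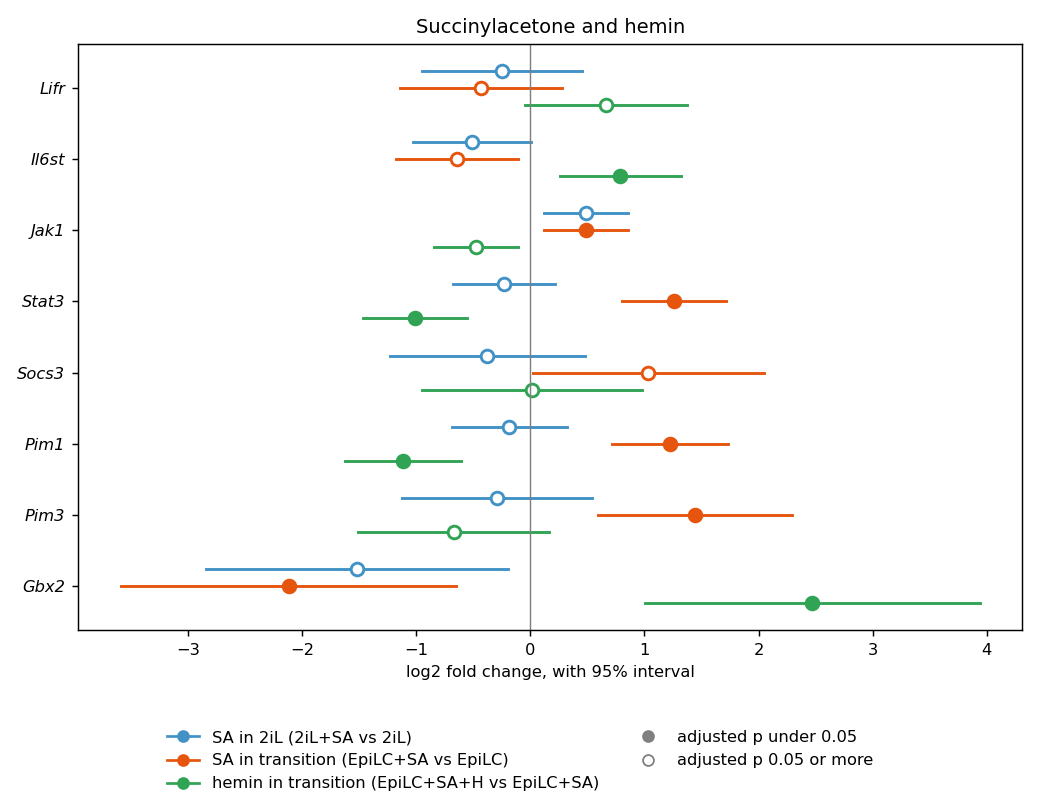
Log2 fold change with 95% interval of the 8 genes for SA in 2iL, SA in the transition and hemin in the transition, with filled points at an adjusted p under 0.05. Stat3 and Pim1 were above 0 with SA in the transition (1.26 and 1.22) and below 0 when hemin was added (-1.01 and -1.12), with no call for SA in 2iL.

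When hemin was added to SA in the transition, Stat3 and Pim1 were about 2-fold lower and Il6st and Gbx2 higher. In EpiLC+SA+H against EpiLC+SA 2 members were higher and 2 lower, where 16.5% of all genes were called, and 5 members (Jak1, Stat3, Pim1, Pim3, Gbx2) did not overlap, where 20.1% of all genes did not. This comparison shares the EpiLC+SA libraries with that of SA, so opposite signs in the 2 are not independent of each other.

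Stat3 was at 59.5, 40.6, 72.6 and 52.6 CPM in EpiLC+SA+H, 2.02-fold below EpiLC+SA (-1.01 ± 0.22, adjusted p = 0.00223). Pim1 was at 86.7, 149, 144 and 109 CPM, 2.17-fold below (-1.12 ± 0.25, adjusted p = 0.00249). Neither gene overlapped between the groups, and both calls held whichever library was left out (adjusted p of at most 0.0174). Pim3 was at 67.8, 310, 261 and 229 CPM, all below EpiLC+SA, but at -0.67 ± 0.41 it was not called (adjusted p = 0.279). Its lowest value came from the shallow replicate 1.

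Il6st was higher with hemin by 0.79 ± 0.26 (adjusted p = 0.0369), and the call was lost without EpiLC+SA replicate 2 or 4 or EpiLC+SA+H replicate 3 or 4 (adjusted p from 0.0757 to 0.117). Gbx2 was 5.54-fold higher (2.47 ± 0.71, adjusted p = 0.0184), at 9.68, 4.73, 9.31 and 25.4 CPM, all above EpiLC+SA. Its call was lost without EpiLC+SA replicate 3 or 4 (adjusted p = 0.0578 and 0.0558) or EpiLC+SA+H replicate 4 (1.80, adjusted p = 0.106). Jak1 was at -0.48 ± 0.18 (adjusted p = 0.0684), and it was called without the 3 shallow libraries (-0.505, adjusted p = 0.0187). Lifr at 0.66 ± 0.34 (adjusted p = 0.195) and Socs3 at 0.01 ± 0.47 (adjusted p = 0.992) were not called. The 95% interval of Socs3 ran from -0.95 to 0.98.

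Between EpiLC+SA+H and EpiLC 0 of 8 members were called with edgeR, where 0.0622% of all genes were called, and 0 with DESeq2, which called 0.803%. For Stat3 the difference was 0.25 ± 0.22 with a 95% interval of -0.21 to 0.70. Socs3, at a 2.06-fold difference with a log2 SE of 0.49 (adjusted p = 0.468), was the 1 member at an unadjusted p under 0.05, where 10.4% of all genes were, and its groups did not overlap, where 3.78% of all genes did not. In 2iL, hemin added to SA gave 0 calls among the members with either tool, where edgeR called 0% of all genes and DESeq2 1 gene. At an unadjusted p under 0.05 were 0 members, where 4.59% of all genes were. In 2iL+SA+H against 2iL there were 0 calls with either tool, where edgeR called 0.00622% of all genes and DESeq2 0.0373%. Il6st (-0.52 ± 0.25) and Jak1 (0.37 ± 0.18) were the 2 members at an unadjusted p under 0.05, where 4.88% of all genes were. The difference between the hemin effects in the 2 media was called for Stat3 alone of the 8 (-1.09 ± 0.31, adjusted p = 0.0324), where 6.33% of all genes were called, 1.76% as lower. That call was lost without any 1 of 9 libraries (2iL+SA replicates 2 and 3, 2iL+SA+H replicates 1, 2 and 3, EpiLC+SA replicates 1 and 3, EpiLC+SA+H replicates 2 and 4), with differences of -0.86 to -1.11 and an adjusted p of at most 0.0762. For Pim1 the difference was of like size (-1.12 ± 0.35, adjusted p = 0.0515), and it was called without EpiLC+SA replicate 1 (0.0411) or EpiLC+SA+H replicate 2 (0.0476).

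Ordered by mean level, Stat3 ran from 191 CPM in 2iL through 172 in 2iL+SA+H, 162 in 2iL+SA and 113 in EpiLC+SA to 56.4 in EpiLC+SA+H and 47.3 in EpiLC. Among these neighbours, EpiLC+SA and EpiLC+SA+H were the pair whose libraries did not overlap. For Socs3 the order was 111 CPM in 2iL, 91.5 in 2iL+SA+H, 84.6 in 2iL+SA, 9.84 in EpiLC+SA+H, 9.73 in EpiLC+SA and 4.37 in EpiLC, with gaps between 2iL+SA and EpiLC+SA+H and between EpiLC+SA and EpiLC. Pim1 and Pim3 had their highest means in EpiLC+SA (266 and 346 CPM), ahead of 2iL (186 and 261 CPM), and their lowest in EpiLC (114 and 127 CPM), with overlap between all neighbours. Gbx2 was highest in 2iL (18.4 CPM) and lowest in EpiLC+SA (2.18 CPM), also with overlap between all neighbours.

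Libraries of 1 group deviated in several members at once. After group means were removed, Lifr and Il6st correlated at r = 0.79 and Socs3 and Pim3 at r = 0.76 over the 24 libraries, which share sequencing depth within each library. These are descriptions, chosen as the largest of 28 pairs after their values were seen. Over all libraries, with group differences left in, Stat3 and Socs3 had r = 0.88.

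The genes whose log2 CPM ran most like a member over the 24 libraries, among 8541 genes with a mean of at least 10 CPM, were Sox2 (r = 0.85), Tet1 (0.84) and Dlc1 (0.80) for Lifr. For Socs3 they were Mpp1 (0.96), Klf8 (0.95) and Glb1 (0.95). For Pim1 they were Ctnna1 (0.90), Slc25a36 (0.90) and Dmd (0.88), and for Gbx2 Dnajc14 (0.83), Dlc1 (0.79) and Znrf2 (0.79). Such values follow the 6 groups and library depth as well as single libraries. By rank correlation, 1 of the 3 genes named for Lifr and 1 of the 3 for Pim1 stayed among the first 3, and 0 for Socs3 and Gbx2.

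Around the 8 genes, 54 others of the pathway were followed in 5 lists, of which 48 passed the filter. In EpiLC against 2iL 11 of the 48 were higher and 15 lower, with SA in both media 6 and 16, and with SA and hemin in both 7 and 13. In EpiLC+SA against EpiLC 11 were higher and 8 lower, and after hemin was added 5 and 3. Of all 16067 genes tested, 2405 were higher and 2149 lower in EpiLC against 2iL. With SA in both media these counts were 2705 and 3369, and with SA and hemin in both 1631 and 1683. In EpiLC+SA against EpiLC they were 1942 and 2535, and after hemin was added 1689 and 956. The shares called in either direction are those given above.

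Of 15 other targets of STAT3, 5 rose and 7 fell from 2iL to EpiLC, at a median of -1.73. Tfcp2l1, a naïve transcription factor downstream of STAT3, fell by 4.74 on the log2 scale (adjusted p = 3.39e-10), from 842 to 1052 CPM in 2iL to 12.3 to 49.2 CPM in EpiLC. The NF-κB cofactor Bcl3 fell by 5.26 (adjusted p = 3.39e-10), from 67.6 to 84.3 CPM to 0.648 to 3.48 CPM. The naïve factor Klf5 fell by 2.28 and the adhesion molecule Icam1 by 2.31. The median was -0.46 with SA in both media (3 higher, 6 lower) and -1.63 with SA and hemin (4 higher, 7 lower).

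In EpiLC+SA against EpiLC 4 targets were higher and 4 lower. Icam1 rose by 2.49 ± 0.34, from 9.07 to 17.3 CPM in EpiLC to 62.7 to 90.8 CPM in EpiLC+SA, and Tfcp2l1 by 2.18 ± 0.32, to 91.2 to 238 CPM. The kinase Pim2, of the same family as Pim1 and Pim3, moved the other way (-2.93 ± 0.60, adjusted p = 0.000885). Its libraries ran from 8.90 to 204 CPM in EpiLC and from 4.64 to 31.1 CPM in EpiLC+SA, which overlapped. The survival factor Mcl1 was lower as well (-0.58 ± 0.18). When hemin was added, Icam1 (-1.35 ± 0.32) and Tfcp2l1 (-1.33 ± 0.31) were lower and Mcl1 (0.55 ± 0.18) higher. So was Myc (3.30 ± 0.82, adjusted p = 0.00591), which is named after its values were seen and stood at 0 to 0.647 CPM in EpiLC+SA and 0.931 to 9.26 CPM in EpiLC+SA+H. The SA effects on Tfcp2l1 and Icam1 differed between the media (2.24 ± 0.43 and 1.85 ± 0.46, adjusted p = 0.00126 and 0.00857). Naïve markers, to which Tfcp2l1 is close in function, had summed levels of 193 to 639 CPM in EpiLC, 583 to 912 CPM in EpiLC+SA and 597 to 1200 CPM in EpiLC+SA+H, and primed markers 1650 to 2510, 308 to 915 and 661 to 1770 CPM, and their part in the members' levels was not tested.

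Of 9 other JAKs and STATs, 0 rose and 2 fell from 2iL to EpiLC, of which Jak3, a JAK best known from lymphocytes, fell by 2.16 ± 0.36. In EpiLC+SA against EpiLC 5 of the 9 were higher and 0 lower, where 1942 of 16067 genes were higher and 2535 lower. The median of the 9 was 0.79. Among the 5, Stat2, a factor of the interferon response, rose by 1.15 ± 0.23, Stat6 by 0.79 ± 0.23 and the kinase Tyk2 by 0.65 ± 0.20. Stat2 went from 12.95 to 28.2 CPM to 45.6 to 71.8 CPM, without overlap. With hemin 0 of the 9 were called with edgeR, 2 were at an unadjusted p under 0.05, where 30.3% of all genes were, and their median was -0.45. The effect of SA on these 9 was not called as different between the media for any of them, with 4 at an unadjusted p under 0.05, where 29.3% of all genes were.

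Of 15 inhibitors and phosphatases, 2 rose and 3 fell from 2iL to EpiLC, among them Pias2 (-0.73 ± 0.15), Pias4 (-0.70 ± 0.19) and the phosphatases Ptpn6 (-0.76 ± 0.22) and Ptpn2 (0.59 ± 0.18). In EpiLC+SA against EpiLC 1 was higher and 4 lower. Socs5, a SOCS protein studied mostly in IL-4 and EGF signalling, fell by 3.21 ± 0.52 (adjusted p = 7.38e-05), from 8.38 to 45.3 CPM in EpiLC to 0.851 to 3.10 CPM in EpiLC+SA, and stood at 7.99 to 16.5 CPM in EpiLC+SA+H (2.59 ± 0.52 against EpiLC+SA, adjusted p = 0.00118). Its effects of SA and of hemin differed between the media (-4.06 ± 0.69 and 3.22 ± 0.69). It thus moved in the direction opposite to Stat3 in both comparisons, which share the EpiLC+SA libraries.

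The other receptors and the cytokines were at low levels. Il6ra, the receptor of IL-6, fell by 3.11 ± 0.57 in EpiLC against 2iL, from 9.49 to 18.8 CPM to 0.387 to 2.59 CPM. Il11ra1, the receptor of IL-11, was 1.28 ± 0.26 higher, and with SA in the transition it was 1.04 ± 0.25 above EpiLC, at 20.1 to 37.2 CPM. With hemin it was 0.80 lower on the log2 scale (-0.80 ± 0.25, adjusted p = 0.0277). The Lif message itself was at 0.546 to 2.29 CPM in 2iL, where LIF was supplied, and at 0.161 to 1.08 CPM in EpiLC. These ranges overlapped, the EpiLC libraries held 1 to 5 counts, and the difference of -1.34 ± 0.87 was not called (adjusted p = 0.262).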

How the data were processed

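Libraries made with the QuantSeq 3′ kit from 24 samples were sequenced single-end. Per the labels and methods, the authors removed adapter sequence, mapped reads to the mm10 build (HISAT2), dropped those with several mapping positions and summed the rest by gene (HTSeq). The annotation and the strand setting are not given in the sources used here. The deposited values are whole-number counts per gene symbol and library, without pooling of replicates, at 1857964 to 9069538 counts per library. At these totals, members with few counts (Gbx2 and, in the transition, Socs3) were measured least precisely.

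Groups were taken from the labels. Genes were filtered with filterByExpr at a minimum count of 5, normalized by TMM and fitted with a robust quasi-likelihood fit of the 6 groups (edgeR 4.0.16, limma 3.58.1, R 4.3.3), tested on simulated data first. Of 11 comparisons, 9 were between groups, and the other 2 set the effects of SA, or of hemin, in the 2 media against each other. P values were adjusted by Benjamini-Hochberg over 16067 genes. Intervals are 95% intervals of the fit, and CPM were scaled by TMM.

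The members and lists were chosen with earlier results of these data known. All members are named. From each other list, up to 4 genes called with the smallest adjusted p and a mean of at least 5 CPM in a compared group are named, and Lif and Myc besides. Some genes that this rule names are not reported here. For 4 members, the 3 genes with the highest Pearson r to it in log2 CPM (prior count 2) are named. Positions are from GENCODE and promoters from RefSeq, matched by symbol. Alternatives were DESeq2 1.42.0, its size factors, other filters, the compared groups alone, a replicate block, no shallow libraries, and each library left out in turn. Figures were drawn with matplotlib 3.10.9.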

Additional observations from a re-analysis of the deposited data

Results flagged for a closer look

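Among the 48 combinations of member and group, the gap of the extreme library to its nearest neighbour was large against the group's range (Dixon's 95% limit) in 1, Pim3 in EpiLC+SA. There replicate 2 was at 400.4 CPM and the others at 325 to 331 CPM. Chance gives about 1 such group in 20.

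SA effects that differed between the media in the direct test were those of Stat3 (1.49), Pim1 (1.41) and Pim3 (1.74), each larger in the transition than in 2iL. The hemin effect on Stat3 also differed, by -1.09, with a lower level after hemin in the transition. With each library left out in turn, the call of Pim3 for SA was lost in 12 of 16 runs. That of Stat3 for hemin was lost in 9 of 16.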

How the results depend on the processing

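The calls of Stat3 and Socs3 in EpiLC against 2iL and with SA and hemin in both media, of Stat3, Pim1 and Pim3 for SA in the transition, of Stat3 and Pim1 for hemin in the transition, and of Stat3 and Pim1 for the difference in SA effect held under every alternative run. So did the calls of Il6st in EpiLC against 2iL and of Il6st and Socs3 with SA in both media. For SA in the transition 3 members were called without the filter and 3 with only the compared groups fitted, against 5. For the difference in hemin effect 2 were called with DESeq2 and 2 with only the compared groups, against 1. The 3 genes most like Lifr, Socs3, Pim1 and Gbx2 shared 1, 0, 1 and 0 genes with those chosen by Spearman's rho. With each library left out in turn, the number of members called ran from 3 to 5 for EpiLC against 2iL, from 3 to 6 for SA in the transition, from 2 to 4 for hemin in the transition and from 0 to 1 for the difference in hemin effect. Without the 3 shallow libraries, values that had not been called changed sign for Pim3 with SA and hemin in both media (0.0744), Lifr for SA in the transition (0.119) and Pim3 for SA in 2iL (0.0138). With single libraries left out, Lifr ran from -0.0754 to 0.281, Pim3 from -0.437 to 0.0833 and Gbx2 from -0.222 to 0.749 with SA and hemin in both media, Lifr from -0.776 to 0.0928 for SA in the transition and Socs3 from -0.178 to 0.140 for hemin in the transition. The cause was not tested. Calls of single members at the threshold also moved with the settings. With only the compared groups fitted, those lost were Pim1 in EpiLC against 2iL (adjusted p = 0.0976), Jak1 (0.159) and Gbx2 (0.0826) for SA in the transition and Il6st for hemin (0.0502), and those gained Gbx2 with SA in both media (0.0419) and Pim1 for the difference in hemin effect (0.0300, and 0.0261 with DESeq2). Without the filter, Jak1 (0.0691) and Gbx2 (0.0675) for SA in the transition and Pim3 for the difference in SA effect (0.108) were lost. At a minimum count of 10, Jak1 for SA was lost (0.0541) and Stat3 with SA in both media gained (0.0484), and with DESeq2's size factors Jak1 for SA was lost (0.0746).

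The labels give no shared origin for a replicate number, so the numbers were not taken to pair the samples. The correlations that follow cannot settle whether they do. Same-numbered libraries of different groups had correlations of their deviations from -0.333 to 0.534 (median 0.0156, 16 of 60 over 0.1, against 29 of 180 among libraries with other numbers), and 11 of 24 libraries correlated best with their own number, a hint from the data and not the design. A replicate block moved 1 call of a member, the difference in SA effect of Pim3 (1.81, adjusted p = 0.0545), and left the other counts of members called as they were.

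Counts of calls over all genes that moved by over 1.5 times were those for the difference in hemin effect (1017, against 1697 with DESeq2, 2083 without the shallow libraries and 639 without EpiLC+SA replicate 4), for SA in 2iL (8, against 0 to 318) and for EpiLC+SA+H against EpiLC (10, against 0 to 210). For the 2 other comparisons within 2iL they were 0 and 1, with up to 29 under an alternative.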
